A study of Homo sapiens with 4 samples.

Results

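The nuclear pore and nuclear transport mRNAs were 49 transcripts that encode proteins of the nuclear pore complex or soluble transport receptors. Their IGF2BP3 RIP peaks were chosen by position. A peak counted when its summit, the base of highest signal, lay in an exon of one of the 49 genes in GENCODE release 44. By that rule 541 of 44622 peaks in replicate 1 and 500 of 42723 peaks in replicate 2 belonged to the set, which made 1041 of 87345 peaks in all. The 49 genes stood among 20033 protein-coding genes.

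The data came from OE-19 cells, an established line derived from an esophagogastric junction adenocarcinoma. Per the labels the cells were UV-fixed. The methods of the study describe UV crosslinking for another assay and none for this one, so the fixation is uncertain. IGF2BP3 was pulled down with an antibody and the RNA that came with it was sequenced (RIP-seq). The series held 2 IGF2BP3 RIP replicates and 2 input replicates of the same line, with no other treatment, genotype or time. Peaks were listed separately for each RIP replicate. Input values were not analysed here, and nothing in the labels said whether the replicates came from separate cultures. The mRNA levels of the genes were not analysed either, so peak number and mRNA abundance cannot be told apart.

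Nuclear pores are channels through the nuclear envelope, built from rings of nucleoporins. The Y complex and the inner ring form the scaffold, membrane nucleoporins anchor it, and nucleoporins rich in phenylalanine-glycine repeats fill the channel. Importins and exportins carry proteins and RNAs through it, and the small GTPase RAN sets their direction. IGF2BP3 is an RNA-binding protein that is known to stabilize many mRNAs and has been described as a reader of methylated adenosines, which lie mostly in a GGAC-like setting. Its RNA-binding KH domains are also known to prefer CA-rich sequence.

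For 10 coding sites whose summits lay close together in the replicates, the RNA sequence under the summit is shown. There were 272 pairs of overlapping coding peaks in 33 members, each peak being the other's partner of largest overlap. In 154 of these overlapping pairs (56.6%), from 30 members, the summits lay within 25 nt of each other. Peaks that did not overlap were not paired, however close their summits. The 10 sequences are those of highest mean fold enrichment among these pairs, with XPO7 left out, whose exon 19 pair would have ranked among them, each 30 nt of coding sequence around the replicate 1 summit, taken from GENCODE transcripts in hg38 and written on the mRNA strand. Fold enrichment is the peak caller's ratio of the RIP signal to its local background at the summit. Capitals mark GGAC or CACA.
POM121 exon 11, chr7:72943114-72943143, plus strand: aaagccacggcttcggccttcggcgctccc
NUP58 exon 13, chr13:25331435-25331464, plus strand: gaagccaagaagtggcagaaCACAcccaga
NDC1 exon 11, chr1:53800769-53800798, minus strand: ttaaatggtatgactcagaaactgattctc
POM121 exon 5, chr7:72929957-72929986, plus strand: gaggcctcaattctcagagctcagatgacc
IPO9 exon 14, chr1:201863533-201863562, plus strand: acaggcaacagttagtggtcttcacgagac
NDC1 exon 10, chr1:53803975-53804004, minus strand: agccttgcaGGACctgatgttgctttctca
XPO4 exon 12, chr13:20808545-20808574, minus strand: gaagaaagagtaacaagactccatggtcag
XPO4 exon 16, chr13:20799266-20799295, minus strand: agcagtttgcaagccgaagcccacctctta
XPO4 exon 15, chr13:20800252-20800281, minus strand: ttctcagtggataattggctacctcttaca
NUP153 exon 21, chr6:17616595-17616624, minus strand: acatttggtgcaaattctagCACAcctgca

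GGAC stood in 1 of the 10 sequences and CACA in 2. Of all 156490 windows of 30 nt in the coding sequences of the 49 genes, 8.71% held GGAC and 11.6% held CACA. The share of C and A together ran from 43.3% in NDC1 exon 10 to 70% in NUP58 exon 13. These letters describe the sites and do not mark bound bases. In 8 of the 10 pairs both peaks had a q, the caller's p corrected for multiple testing, of at most 0.05. XPO4 exon 12 lacked this in replicate 1 and XPO4 exon 15 in replicate 2.

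An exonic summit was found in 44 members in replicate 1 and in 42 in replicate 2. All 42 were also among the 44, which is 85.7% of the 49. Over all protein-coding genes the share with an exonic summit in both replicates was 28.0%. The members have long coding sequences, with a median of 2916 nt against 1284 nt over all protein-coding genes, and the share with summits in both replicates moved with that length. Among genes with less than 1000 nt of coding sequence (CDS) it was 13.1%, against 1 of 2 members. Between 1000 and 2000 nt it was 28.4%, against 9 of 12 members. It was 43.9% between 2000 and 3000 nt, where 10 of 12 members had summits in both, and 51.2% between 3000 and 4000 nt, where 11 of 12 did. At 4000 nt or more it was 54.2%, against 11 of 11 members. The members' share was thus above that of all genes in each length class, although the shortest class held only 2 of them. Whether mRNA abundance differs in the same way was not tested.

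The members without an exonic summit in either replicate were NUP85 and NUP37 of the Y complex, the importin-α genes KPNA2 and KPNA5, and the import receptor IPO4. NUP107, another scaffold nucleoporin, and the import receptor IPO13 each had 1 peak in replicate 1 and none in replicate 2. The KPNA5 mRNA has 11288 nt, of which 9544 nt are 3′ UTR and 1620 nt are CDS.

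A peak with a q of at most 0.05 was far less frequent. It was found in 23 members in replicate 1, in 20 in replicate 2 and in 17 (34.7%) in both, against 4.93% of all protein-coding genes in both. These shares of genes were not matched for coding length or number of peaks. The 17 were AHCTF1, NUP155, NUP58, RANBP2, NUP214, NUP98, NUP153, NDC1, POM121, KPNA3, IPO7, IPO8, IPO9, XPO4, XPO5, XPO6 and XPO7. Another 6 members, NUP133, KPNA6, TNPO1, TNPO2, TNPO3 and CSE1L, had such a peak in replicate 1 alone, and NUP205, NUP54 and TPR had one in replicate 2 alone. By peaks, 59 of 541 in replicate 1 and 57 of 500 in replicate 2 reached that q, which is 10.9% and 11.4%. In other protein-coding genes 10.2% and 7.77% of peaks did, so the shares were close in replicate 1. Most member peaks thus rest on an uncorrected p of at most 0.01.

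Peaks per member ran from 0 to 34 in replicate 1 and from 0 to 36 in replicate 2, with a median of 10 in both. The counts of the replicates went together across the 49 genes (Pearson's r = 0.939, Spearman's rho = 0.945, points that share gene length and mRNA abundance). The 10 genes with the most peaks, NUP214, XPO4, NUP98, XPO7, IPO9, NUP155, NUP153, XPO5, IPO8 and XPO6, held 466 of the 1041 peaks (44.8%). Longer coding sequences carried more peaks (r = 0.577, rho = 0.615, n = 49). The number of coding summits per kb of CDS followed that length less closely (r = 0.194, rho = 0.278). Genes are therefore compared per kb of CDS from here on.

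**Figure D1:**
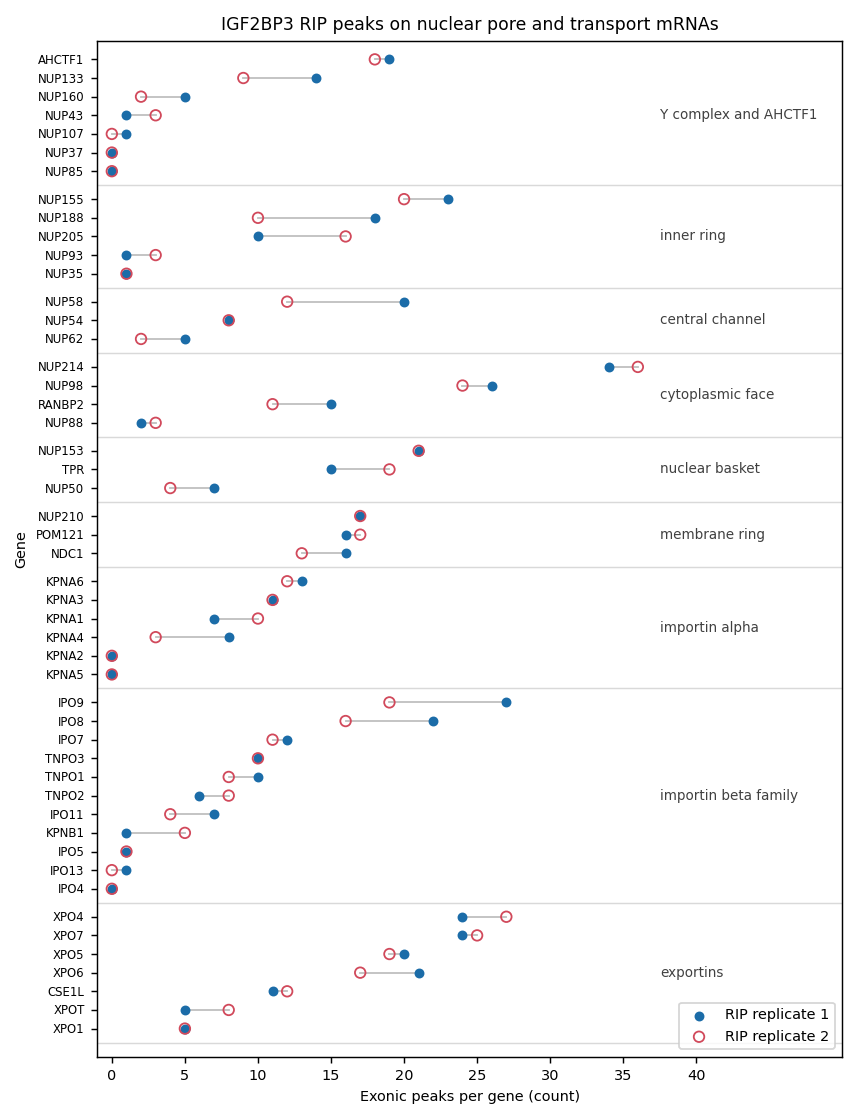
Exonic IGF2BP3 RIP peaks per gene (x axis, count) for the 49 genes (y axis), grouped by role, with filled points for RIP replicate 1, open points for RIP replicate 2 and a grey line joining them. NUP214 lies farthest right with 34 and 36 peaks, and 5 genes lie at 0 in both replicates.

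Over the 49 members the median was 2.39 coding summits per kb of CDS in replicate 1 and 2.50 in replicate 2 (2.45 ± 0.0770, SD, n = 2). The 5523 protein-coding genes with a coding mRNA and an exonic summit in both replicates had medians of 1.97 and 1.94 (1.95 ± 0.0202). Of the 49 members, 29 lay above the median of those genes' means, 1.98. The members' medians were above those of the comparison genes in both replicates. The 49 include 7 members without a summit in 1 or both replicates. The SD is between replicates and does not measure how far a median varies with the genes in the set. Single genes varied widely, with quartiles of 1.02 and 4.31 summits per kb in members and 0.951 and 3.37 in the comparison genes. Whether the medians differ by more than such variation among genes was not tested. The comparison genes had shorter coding sequences, with a median of 1845 nt against 2916 nt. By length class, among genes with summits in both replicates, the members' median was 1.02 against 1.82 below 1000 nt, where there was 1 member, and 2.47 against 1.91 from 1000 to 2000 nt. It was 2.06 against 1.98 from 2000 to 3000 nt, 4.64 against 2.21 from 3000 to 4000 nt, and 2.67 against 2.25 at 4000 nt or more. The gap was thus uneven over lengths and widest between 3000 and 4000 nt.

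The Y complex builds the outer rings of the pore, and AHCTF1 (ELYS) links it to chromatin. Of its 7 members 4 had summits in both replicates. AHCTF1, on chr1 from 246839098 to 246931948, had 19 and 18 peaks, of which 18 and 17 lay in the CDS. Its highest fold was 5.35 in replicate 1, in exon 19 of 36, and 4.74 in replicate 2, in exon 29, so the strongest sites of the replicates differed. The exon 29 site was present in both lists, with 4.68 in replicate 1 and summits 12 nt apart. NUP133, a Y complex scaffold protein, had 14 and 9 peaks, all in the CDS, and the highest mean density of the group with 4.03 and 2.59 summits per kb. In replicate 2 NUP43 was level with it, at 2.62 from 3 summits, after 0 in replicate 1. NUP160 had 5 and 2 peaks and NUP43 had 1 and 3, with highest folds between 2.59 and 3.83. Among the 7 listed members of this group the density thus ran from 0 in NUP85 and NUP37 to 3.31 summits per kb in NUP133, as the mean of the replicates.

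All 5 members of the inner ring, the scaffold that lines the channel, had summits in both replicates, but unevenly. NUP155 (chr5, 37288137 to 37371106) had 23 and 20 peaks and led the group by fold and by density. Its strongest peak in replicate 1 reached 5.56 in exon 23, where replicate 2 had 3.37. The strongest peak in replicate 2 reached 6.29 in exon 10, where replicate 1 had 2.81. Both sites were thus found in both lists with their order turned around. NUP188 had 18 and 10 peaks and NUP205 had 10 and 16, with 6 and 4 peaks in each list overlapping the other. NUP93, a linker of the scaffold, and NUP35 had at most 3 peaks, and none of these overlapped between replicates.

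The central channel nucleoporins NUP62, NUP58 and NUP54 form 1 complex that lines the transport path. NUP58 (chr13, 25301524 to 25365390) had 20 and 12 peaks, and 12 of each list overlapped the other. Its density was 7.78 and 4.44 summits per kb. Its highest fold of 6.99 in replicate 1 stood at exon 13 with a q of 2.91e-05. The same exon had 4.87 in replicate 2, with a q of 0.0392 and the summit 9 nt away. This is one of the CACA-bearing sequences shown above. NUP54 had 8 and 8 peaks with 5.25 and 4.59 summits per kb. NUP62 had 5 and 2 peaks with 1.91 and 0.637 summits per kb, and 3 and 1 of those peaks lay in exons of other genes as well. The partners of this complex therefore differed in density, with NUP62 below both others in each replicate. The NUP62 CDS lies in 1 exon, with 1569 nt, against 16 coding exons in NUP58 and 12 in NUP54. Summits per kb were lowest in exons of that length, as given below. The part of exon structure in this contrast was not tested.

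The cytoplasmic face carries NUP214 and NUP88, RANBP2 (NUP358) on the cytoplasmic filaments, and NUP98, a nucleoporin found on both faces of the pore. NUP214 (chr9, 131125573 to 131234663) had the most peaks of all members, 34 and 36, and all 34 of replicate 1 overlapped a peak of replicate 2. Summits lay in 30 and 33 of its 36 coding exons, 29 of them in both replicates. Its strongest peak was the same site in both lists, in exon 23. In replicate 1 it ran from 131175434 to 131175601 with a fold of 8.27 and a q of 5.03e-08. In replicate 2 it ran from 131175441 to 131175641 with a fold of 6.53 and a q of 6.32e-05, and the summits lay 41 nt apart. NUP214 was the only one of the 42 members with summits in both lists whose strongest peaks overlapped. At a q of at most 0.05 it had 8 and 11 peaks.

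NUP98 had 26 and 24 peaks, with summits in 24 and 23 of its 32 coding exons, and 4.44 and 4.26 summits per kb. These values cover the whole coding sequence of its canonical transcript, 5403 nt, and its parts were not told apart by protein product. NUP88 had 2 and 3 peaks, of which 2 in each list lay in exons of another gene as well. RANBP2 had 15 and 11 peaks, all in the CDS, but only 1.55 and 1.14 summits per kb. Its exon 20 holds 5152 nt of its coding sequence and carried 3 and 4 summits, or 0.582 and 0.776 per kb. The other coding exons of RANBP2, 4523 nt together, carried 12 and 7 summits, or 2.65 and 1.55 per kb. Its strongest peak, 6.16 in replicate 1, stood at codon 833 in exon 18, where replicate 2 had 3.54 with the summit 5 nt away.

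RANBP2 has near-identical copies, the RGPD genes, and how reads of such copies were placed is not given in the sources used here. Of the 7 RGPD genes, RGPD1 had 1 peak in replicate 1, RGPD6 had 2 in replicate 1, RGPD5 had 2 in replicate 2, and the other 4 had none. The RANBP2 values are uncertain for that reason.

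The nuclear basket reaches into the nucleoplasm. NUP153 (chr6, 17615035 to 17706925) had 21 and 21 peaks, of which 19 in each list overlapped the other, and 17 of its 22 coding exons held a summit in both replicates. Its highest folds were 6.04 in exon 5 in replicate 1 and 5.35 in exon 6 in replicate 2. Its exon 21 site, shown above, was more alike in the replicates, with 4.72 and 5.34 and q values of 0.000948 and 0.000117. TPR, the coiled-coil protein of the basket, had 15 and 19 peaks in a CDS of 7092 nt, a lower density of 1.97 and 2.40 per kb. NUP50, a cofactor of importin-α, had 7 and 4 peaks.

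The membrane ring anchors the pore in the nuclear envelope. POM121 (chr7, 72879349 to 72951440) had the highest fold of all members in both replicates. A peak in exon 4 reached 8.996 in replicate 1 with a q of 9.61e-10, and 6.34 in replicate 2 with a q of 4.35e-05, with summits 28 nt apart. In replicate 2 the strongest peak was in exon 5, with 6.57 against 4.54 in replicate 1. POM121 had 16 and 17 peaks, 6 in each list with a q of at most 0.05. Its copy POM121C, elsewhere on chromosome 7 and not one of the 49, had 16 and 16 peaks with highest folds of 6.55 and 6.59. How reads of the copies were divided is not given in the sources used here, and the POM121 values are uncertain for that reason.

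NDC1 (chr1, 53765478 to 53838463), a transmembrane nucleoporin, had 16 and 13 peaks and the highest density of its group, 6.42 and 5.93 summits per kb. At exon 11 the replicates had nearly the same fold, 5.72 and 5.83, with q values of 0.000688 and 2.98e-06 and summits 22 nt apart. At exon 10, whose window holds the GGAC shown above, the folds were 6.16 and 4.43. NUP210, the large glycoprotein of the ring, had 17 and 17 peaks, but its highest folds were 3.46 and 2.93 and none reached a q of 0.05. Peak number and fold enrichment were thus not the same ranking in this ring.

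**Figure D2:**
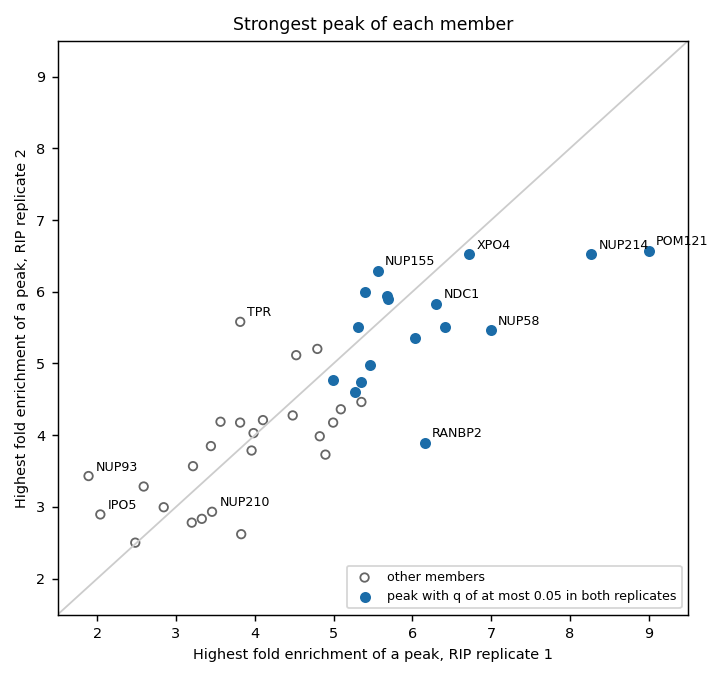
Highest fold enrichment of a peak in each member in RIP replicate 1 (x axis) against RIP replicate 2 (y axis), for the 42 members with a summit in both, with filled points for members with a q of at most 0.05 in both replicates and a grey line at equal values. POM121 at 8.996 and 6.57 and NUP214 at 8.27 and 6.53 lie farthest to the upper right, and RANBP2 lies below the line.

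Importin-α proteins recognize the classical nuclear localization signal. Of the 6 genes, 4 had summits in both replicates. KPNA3 (chr13, 49699320 to 49792682) had 11 and 11 peaks and 5.11 and 5.75 summits per kb. Its strongest peaks were 5.47 in exon 11 in replicate 1, where replicate 2 had 3.24, and 4.99 in exon 10 in replicate 2, where replicate 1 had 2.41. KPNA4, the closest relative of KPNA3 and with a CDS of the same 1566 nt, had 8 and 3 peaks and 1.92 and 1.28 summits per kb. Neither replicate put KPNA4 near KPNA3 in density.

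KPNA1, KPNA5 and KPNA6 form another close subfamily, with coding sequences of 1617, 1620 and 1611 nt. KPNA6 had 4.35 and 3.72 summits per kb, KPNA1 had 2.47 and 2.47, and KPNA5 had none. The order of these 3 was the same in both replicates. KPNA2, the importin-α gene known for its high levels in dividing cells, had no exonic summit, while its processed copy KPNA2P3 had 1 and 3 peaks with highest folds of 2.84 and 3.24. How reads were divided between KPNA2 and that copy was not tested. Of the member summits on importin-α genes 57.4% lay in the CDS, the lowest share of the 9 groups. The 3′ UTRs of the genes with summits ran from 2480 nt in KPNA3 to 7097 nt in KPNA4.

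The importin-β family binds cargo or importin-α and passes through the pore. Of these 11 import receptors 9 had summits in both replicates. IPO8 (chr12, 30628988 to 30695869) had 22 and 16 peaks and led by the mean over replicates of its highest fold and of its density, which was 6.42 and 3.85 summits per kb. In replicate 2 alone IPO9 was level in fold, with 5.51, and higher in density, with 4.16. The strongest IPO8 peak in replicate 1 reached 6.42 in exon 10 with a q of 7.91e-06, where replicate 2 had 3.15 with the summit 5 nt away. In replicate 2 the strongest IPO8 peak reached 5.51 in exon 23, where replicate 1 had 4.44. IPO7, a close relative of IPO8, has a CDS of 3117 nt against 3114 nt in IPO8. It had 12 and 11 peaks, or 2.25 and 2.89 summits per kb. IPO8 was above IPO7 in each replicate, by more in replicate 1 than in replicate 2.

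IPO9 had 27 and 19 peaks, 10 and 5 of them in its 3′ UTR of 8237 nt, and its exon 14 site was level in the replicates with 5.31 and 5.36. The transportins TNPO1, TNPO2 and TNPO3 had 10 and 8, 6 and 8, and 10 and 10 peaks. KPNB1 (importin-β1), the main partner of importin-α, had 1 and 5 peaks, none overlapping, with 0.38 and 1.14 summits per kb. IPO5 had 1 and 1, and IPO11 had 7 and 4, again with no overlap. The receptor most used in classical import was thus below the median of the 49 members in both replicates.

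Exportins carry cargo out of the nucleus, and all 7 had summits in both replicates, with 110 and 113 peaks. XPO4 (chr13, 20777329 to 20903048), a receptor known to export EIF5A, led the group by fold. It had 24 and 27 peaks, and 23 and 24 of these overlapped the other list. Its highest folds were 6.72 in exon 15 in replicate 1 and 6.53 in exon 12 in replicate 2, and the other replicate had 3.42 and 3.67 at those sites. XPO7 (chr8, 21919662 to 22006585) had 24 and 25 peaks and the highest mean density of all members, 7.05 and 6.74 summits per kb. Summits stood in 19 of its 28 coding exons in both replicates, yet its highest folds were 5.40 and 5.995.

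XPO5, the exporter of microRNA precursors, had 20 and 19 peaks and 4.70 summits per kb in each replicate. XPO6, which exports actin, had 21 and 17 peaks with 5.62 and 4.74 per kb. CSE1L, which returns importin-α to the cytoplasm, had 11 and 12 peaks. XPO1 (CRM1), the main exporter of proteins with a leucine-rich signal, had 5 and 5 peaks with none overlapping, and XPOT, the tRNA exporter, had 5 and 8. XPO1 and XPOT had 1.55 to 2.42 summits per kb, below the 3.77 or more of the other 5 exportins in both replicates. The median density of the exportins was 4.70 summits per kb, against medians between 0.594 and 4.92 in the other 8 groups.

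**Figure D3:**
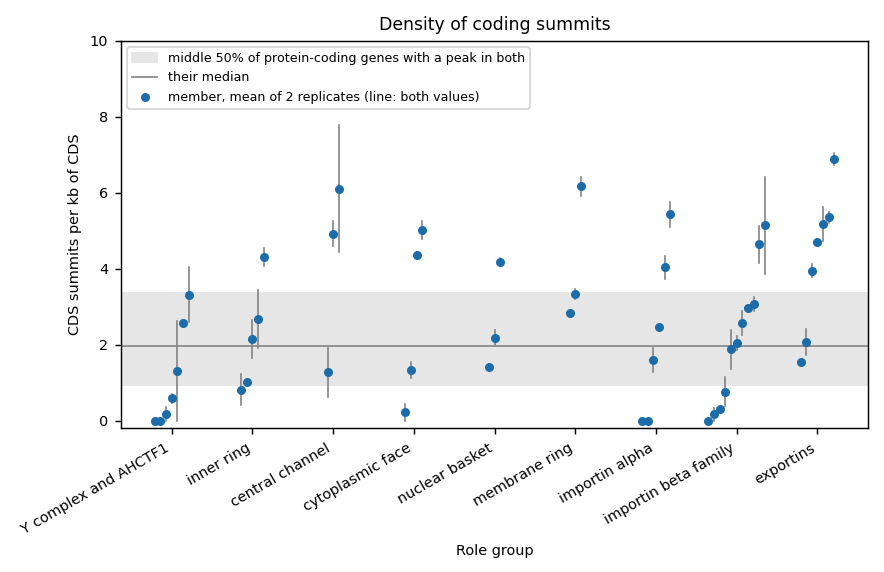
Coding summits per kb of CDS (y axis) for each member by role group (x axis), as the mean of the 2 RIP replicates (points) with both values joined by a line, and the middle 50% (grey band, 0.951 to 3.37) and median (grey line, 1.98) of the 5523 protein-coding genes with a summit in both. XPO7, NDC1 and NUP58 lie highest, and 5 members lie at 0.

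Of the member peaks, 61.7% and 67% had an overlapping partner in the other list (64.4% ± 3.72, SD, n = 2). In other protein-coding genes it was 62.9% ± 2.66, a difference within the spread. The median fold was 2.95 and 3.03 in members and 2.95 and 2.93 in other genes. The highest folds of the other genes, 11.7 and 10.2, were above those of any member. Fold enrichment was poorly repeated at the level of sites. Across 334 overlapping member peaks the log2 folds had r = 0.248 and rho = 0.223, whereas the highest fold per member had r = 0.810 and rho = 0.830 (n = 42). These are descriptions across peaks and genes of the same pair of libraries.

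On the canonical mRNAs, 84.9% and 86.4% of member summits lay in the CDS (85.6% ± 1.04). The CDS made up 61.4% of the length of those mRNAs. In other genes 77.6% ± 1.02 of summits lay in a CDS that made up 51.1% of the length. The 3′ UTR held 12.3% ± 1.29 of member summits against 35.4% of the length, and in other genes 18.7% ± 0.933 against 44.4%. Members thus had more coding summits and also a larger coding part. Within the CDS the first, middle and last parts of equal length held 30.2%, 36.4% and 33.4% of member summits. Within 200 nt of the stop codon lay 7.35% ± 0.0286 of member summits and 8.48% ± 0.166 of those in other genes.

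Coding exons of members were often marked one by one. In the 42 members with summits in both replicates, 43.7% and 41.5% of 1011 coding exons held a summit, against 38.0% and 37.6% in the other genes of that kind. Exons with less than 100 nt of coding sequence held one in 32.7% and 25.96%, those of at least 100 but below 200 nt in 46.3% and 46.3%, and those of 200 nt or more in 67.7% and 68.8%. In the other genes the shares were 22.4% and 23.4%, 42.3% and 41.8%, and 56.1% and 53.1%. The members were above the other genes in each length class and in both replicates, with the smallest gap for the shortest exons in replicate 2. Of the exons with a summit in replicate 1, 62.4% in these members and 64.1% in the other genes had one in replicate 2. Members were lower for exons below 100 nt, with 39.6% against 50.9%, and higher for those of 200 nt or more, with 82.5% against 74.6%.

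Per kb the order was turned around. Member exons below 100 nt carried 4.28 and 3.39 summits per kb, and those of at least 100 but below 200 nt carried 3.28 and 3.28. Those of at least 200 but below 1000 nt carried 2.56 and 2.56, and the 5 exons of 1000 nt or more carried 0.748 and 0.748. The other genes fell in the same way, from 3.16 and 3.30 below 100 nt to 0.720 and 0.667 at 1000 nt or more. The 5 long member exons lie in NUP214, RANBP2, AHCTF1, POM121 and NUP62. A peak has 1 summit however wide it is, and some of these exons were covered by 1 wide peak. In NUP214 exon 29, with 1800 nt of coding sequence, the peak was 1805 bp wide in replicate 1 and 1788 bp in replicate 2. In POM121 exon 11, of 1686 coding nt, the widest were 1715 bp and 1394 bp. Peaks over 1000 bp occurred in 1 other member, KPNA6, where the widest were 1753 and 1152 bp.

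**Figure D4:**
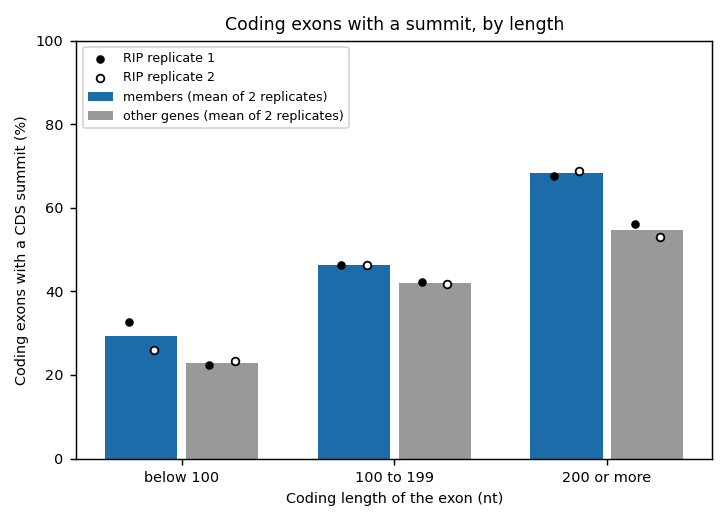
Share of coding exons with a coding summit (y axis, %) by the coding length of the exon (x axis, nt), for the 42 members and the other protein-coding genes with a summit in both replicates, as bars for the mean of the 2 RIP replicates with a filled point for replicate 1 and an open point for replicate 2. The bars rise with exon length in both sets, to 67.7% and 68.8% in members at 200 nt or more.

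Member peaks had a median width of 108 and 106 bp, and the exons under them a median of 140 and 145 nt. Both ends of the peak lay in the same exon in 53.9% and 60.9% of member peaks (57.4% ± 4.96), against 66.4% ± 0.593 in other genes. The other peaks ran past an exon end in genome coordinates.

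GGAC stood in 25.9% and 23.4% of windows reaching 50 nt to either side of a member summit (24.6% ± 1.76), against 26.2% of all such windows in the same regions of the same mRNAs. In the other genes it stood in 32.1% ± 0.102 of summit windows and in 31.9% of all windows. The members' share was thus lower around summits and in the mRNAs as a whole, and summit windows held GGAC 0.938 ± 0.0652 times as often as all windows. CACA stood in 36.5% ± 3.78 of member summit windows and in 36.7% of all their windows. In other genes it stood in 38.5% ± 0.432 of summit windows and in 36.1% of all windows. Over all member peaks, the mean shares of GGAC and CACA differed between summit windows and the mRNAs by less than the spread between the replicates. In replicate 2 alone the GGAC gap was larger than that spread. Member peaks with a q of at most 0.05 held GGAC in 31.8% ± 5.32 of summit windows, above the 24.6% over all member peaks. The share in all windows was not computed for those peaks. TGGAC, a longer form of GGAC, stood in 11.0% and 9.63% of member summit windows (10.3% ± 0.987), against 11.8% of all their windows. In replicate 1 that gap was smaller than the spread, and in replicate 2 and in the mean it was larger. The spread does not measure how far a share varies with the windows sampled, so no difference is drawn from it. In other genes TGGAC stood in 13.0% ± 0.103 and 12.6%. The search used the mRNA strand alone and counted overlapping hits once per window.

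Other genes of the pathway, which were listed beside the 49, mostly have short coding sequences, with a median of 1269 nt. Exonic peaks in both lists were found for 6 of the 24, and 12 had no peak at all. Over all protein-coding genes the share with exonic summits in both was 28.0%, and 28.4% between 1000 and 2000 nt of CDS. The list of 24 was thus close to genes in general. RAN itself, its exchange factor RCC1, its activator RANGAP1 and the RAN importer NUTF2 were among the 12. MCM3AP, a scaffold of mRNA export with a CDS of 5943 nt, had 16 and 18 peaks. TMEM33 had 5 and 6, SEH1L of the Y complex 3 and 1, NUP42 2 and 3, and the receptor RANBP17 1 and 2. POM121C was the sixth and the one gene of the 24 with a q of at most 0.05 in both, beside 4.93% of all protein-coding genes. Of 22 pseudogenes named after members, 20 had no peak and AHCTF1P1 had 1 and 2.

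A few member summits also lay in exons of another gene, 21 in replicate 1 (3.88%) and 19 in replicate 2 (3.8%). The peak lists carry no strand, so these cannot be told apart between the genes.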

How the data were processed

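IGF2BP3 RIP-seq peak lists of the 2 RIP replicates were used. The methods of the study give Tophat2 for mapping to hg38 and MACS2 for calling peaks, both with default settings. The submitters' processing notes name fastp, HISAT2 and MACS2, so the aligner is uncertain. Peaks were called per replicate. The deposited fold enrichment is the ratio of RIP signal to local background at the summit, as the authors' caller gave it. The −log10 p and the −log10 q were deposited as the caller wrote them. In 100% of peaks the score that the authors deposited equals 10 times the −log10 p with its decimals dropped. The smallest −log10 p was 2.0003 and 2.00226 and both lists had a median −log10 q of 0, which goes with a limit of 0.01 on the uncorrected p. The caller's control library is not stated, and read depth is unknown, so no counting interval was given. Input libraries were not analysed here.

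Summits were assigned to exons of GENCODE 44 without regard to strand, and 13 and 12 peaks on unplaced scaffolds were left out. Positions in mRNAs refer to the canonical coding transcript. An overlap of 1 bp or more made a peak shared. Coding peaks were paired for sequences when each was the other's partner of largest overlap. Values are per replicate with the mean ± SD (n = 2), and no significance test was made over members, which are not replicates. The 49 members, the role groups and the 24 other pathway genes were chosen with earlier results of these data known. Each role group is described by its member of highest fold and its member with most summits per kb of CDS, and members with a q of at most 0.05 in both replicates or without a summit are named. Alternatives were limits on q, p and fold, other overlap and assignment rules, the longest transcript, other windows and motifs, and leaving out each replicate. The gene and position assignment was tested on 5000 simulated summits, of which 100% were placed correctly. The work was done in Python 3.11.15 with pandas 2.3.3, numpy 2.4.6, matplotlib 3.10.9 and scipy 1.17.1.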

Additional observations from a re-analysis of the deposited data

Results flagged for a closer look

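Summits in introns of the members, which the comparisons above leave out, numbered 17 in replicate 1 and 13 in replicate 2. The exonic peaks numbered 541 and 500. Intronic summits of other genes were not counted, so whether these numbers are unusual was not tested. The intronic summits of members lay in 11 and 8 genes, and 7 and 8 of them had an overlapping partner in the other list. The highest folds were 3.43 and 3.60, and 0 of them had a q of at most 0.05 in either replicate.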

How the results depend on the processing

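Of 41 values recomputed under another choice, 18 stayed within the spread between replicates or within 1.5 times the count, and 23 moved. With only peaks of q at most 0.05, 17 members had a peak in both replicates, each replicate had 58 member peaks on average, 20.7% of them were shared, the median fold was 5.28, the median density was 0 summits per kb of CDS, 94.0% of summits lay in the CDS, 31.8% of windows held GGAC and 28.3% of peaks lay inside 1 exon. With only peaks of fold 5 or more these were 12 members, 35.5 peaks, 16.9%, 0 summits per kb, 94.3% in the CDS and 29.7% inside 1 exon. At a −log10 q of at least 5, 1 member, NUP214, had a peak in both replicates. Sharing was 45.3% with an overlap of 50% of both peaks and 45.6% with summits within 50 nt. A tolerance of 10 bp put 73.6% of peaks inside 1 exon, and counting exonic summits per kb of mRNA gave a median of 1.59. GGAC stood in 14.5% of windows reaching 25 nt and in 44.3% of those reaching 100 nt to either side of the summit, and within 50 nt TGGAC stood in 10.3% and CACA in 36.5%. Leaving out each replicate gave 500 to 541 peaks, 61.7% to 67% shared, a median fold of 2.95 to 3.03, 2.39 to 2.50 summits per kb, 84.9% to 86.4% in the CDS, 23.4% to 25.9% with GGAC and 53.9% to 60.9% inside 1 exon. Without POM121 and RANBP2, a choice made after seeing the data, 40 members had summits in both replicates and 15 had a q of at most 0.05 in both. No paired analysis was possible because peak lists were used for the RIP samples alone and no result came from a test. Values above a stricter limit rest on few peaks, and unknown depth means that a gene without a peak may hold binding that was not detectable. The cause of the moved values was not tested.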
